A study of Mus musculus with 2 samples.

Results

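Nuclear pore and nuclear transport genes were described by the binding of CHD2 at their promoters in ES-E14 cells. This is an embryonic stem cell line derived from a male mouse embryo of strain 129/Ola. The members were taken by symbol as protein-coding genes named Nup plus a number, or with names that begin with Xpo, Ipo, Kpna, Kpnb or Tnpo. That rule gave 44 of 21530 protein-coding genes whose strand was known, of which 21 were Nup genes and 23 were importin and exportin genes. CHD2, a chromatin remodeller with a chromodomain and a helicase domain, had been mapped by ChIP-seq in 1 group of 2 biological replicates, with no treatment or genotype compared. Both replicates are labelled with the same biosample entry, and the labels do not say that they came from separate cultures. Each member was scored by the highest signal of a peak summit within 1 kb of its 5′ end, in the optimal list made from both replicates and in an equal number of the strongest peaks of each replicate's own relaxed list. A gene with such a peak in the optimal list is called occupied. Signal is the deposited value of each peak and has no stated unit, so values of different lists are not on 1 scale.

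The nuclear pore is a large ring of nucleoporins set into the nuclear envelope. Scaffold rings of structural nucleoporins hold a central channel filled with disordered FG repeats. Importins and exportins carry cargo through these repeats, and the small GTPase Ran sets the direction of travel. An importin alpha adaptor such as Kpna2 binds a classical nuclear localisation signal, and importin beta, encoded by Kpnb1, takes the pair into the nucleus. Xpo1 exports proteins with a leucine-rich export signal. Stem cells divide fast and rebuild their pores after every mitosis, and importin alpha genes are known to be used in different proportions as they differentiate.

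The median signal was 29.6 in the optimal list, 16.1 in that of replicate 1 and 16.6 in that of replicate 2. All optimal peaks carried the same signal as in the pooled relaxed list, so an optimal signal is not independent of the replicates. The number of reads behind any list is unknown, and the intervals given cover counting error over genes only. Of 6 pluripotency genes checked, Sox2 alone had an optimal promoter peak (25.7), and a promoter peak cannot show that a gene is expressed. The cell type was therefore taken from the labels.

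CHD2 had an optimal promoter peak at 9 of the 44 members, namely the transport receptor genes Kpna2, Kpnb1 and Xpo1 and the nucleoporin genes Nup62, Nup37, Nup98, Nup153, Nup88 and Nup133. That is 20.5% of the members (exact Clopper-Pearson 95% interval 9.80 to 35.3), against 14.1% of all protein-coding genes, a background that lies inside the interval. Nup genes were occupied in 6 of 21 cases (28.6%, 11.3 to 52.2) and importin and exportin genes in 3 of 23 (13.0%, 2.78 to 33.6). These intervals overlap, and the difference between both kinds of gene was not tested. Members are genes and not replicates, so no p-value was attached to these counts.

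**Figure D1:**
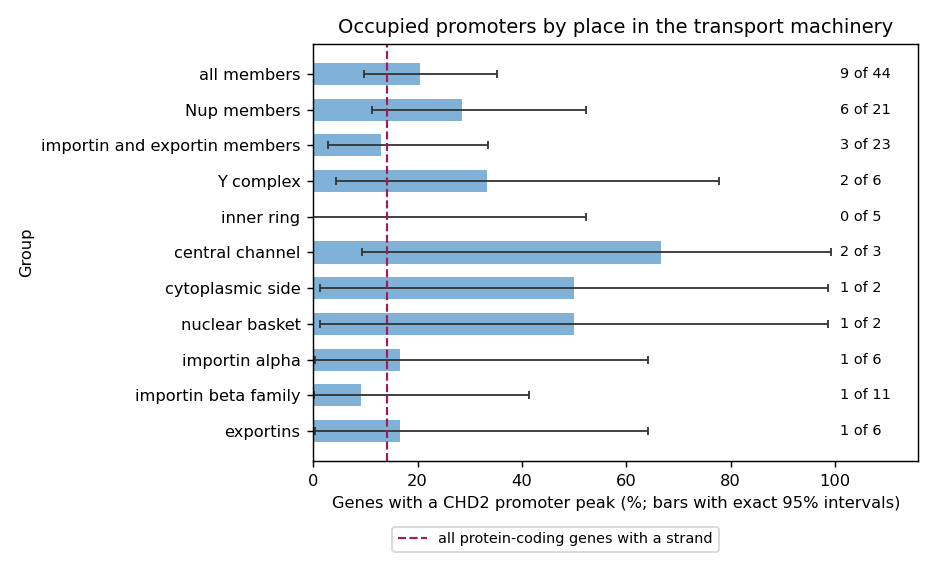
Percentage of genes with an optimal CHD2 promoter peak (x axis) in each group of pore and transport genes (y axis), with exact 95% intervals as thin lines and the number occupied at the right. The dashed line marks the 14.1% of all protein-coding genes, which lies inside the interval of every group drawn.

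The occupied members were the same 9 in several other lists. In the strongest pooled peaks, taken in the same number, 9 members were found against a background of 15.0% of all genes. The list on mm9, an older genome build, also held these 9, with a background of 9.99%. Both lists were made from the same 2 replicates, and every optimal peak is also a pooled relaxed peak. Finding the same members there is therefore not independent recurrence. The own list of replicate 1 gave 11 members (25.0%, background 14.5%) and that of replicate 2 gave 9 (20.5%, background 14.2%). The conservative list gave 11 (background 13.6%). In all, 8 of the 9 members had a peak in the own lists of both replicates, with Nup133 missing from that of replicate 2. Among all genes with an optimal peak, 71.5% did so.

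The highest signals among the 44 members were at Kpna2 and Kpnb1. Kpna2, an importin alpha, had a signal of 164 in the optimal list (rank 380 among its peaks), 79.6 in replicate 1 and 82.9 in replicate 2. Its peak lay at chr11:106999500-106999779 on mm10, with the summit 128 bp before the 5′ end. Kpnb1, the importin beta that partners it, had 118 in the optimal list (rank 619), 57.8 in replicate 1 and 61.0 in replicate 2. This peak lay at chr11:97187960-97188068, with the summit 107 bp before the 5′ end. Relative to the median of its list, Kpna2 stood at 4.94 in replicate 1 and 5.0 in replicate 2, and Kpnb1 at 3.59 and 3.68. Both genes were therefore placed alike by both replicates. The end of a long non-coding RNA gene, Gm39424, lay 184 bp from the Kpna2 summit. Over all 3036 genes with an optimal promoter peak, Kpna2 ranked 365 and Kpnb1 ranked 554.

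The promoters of both genes are shown because their summits fall inside them. Sequences are from RefSeq on GRCm38.p6, run 5′ to 3′ in the direction of the gene, and cover 250 bases before to 50 bases after the transcription start, so that the start is base 251. Capitals mark exact matches to any of the 10 motifs listed further on, here the CCAAT box, the letters bound by the trimeric factor NF-Y.
Kpna2, chr11:106999476-106999775, minus strand: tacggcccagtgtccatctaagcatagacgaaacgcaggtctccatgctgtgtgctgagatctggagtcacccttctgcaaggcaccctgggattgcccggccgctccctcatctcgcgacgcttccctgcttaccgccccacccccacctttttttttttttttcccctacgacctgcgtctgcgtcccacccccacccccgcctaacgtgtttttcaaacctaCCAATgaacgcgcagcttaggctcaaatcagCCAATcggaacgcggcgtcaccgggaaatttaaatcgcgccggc
Kpnb1, chr11:97187843-97188142, minus strand: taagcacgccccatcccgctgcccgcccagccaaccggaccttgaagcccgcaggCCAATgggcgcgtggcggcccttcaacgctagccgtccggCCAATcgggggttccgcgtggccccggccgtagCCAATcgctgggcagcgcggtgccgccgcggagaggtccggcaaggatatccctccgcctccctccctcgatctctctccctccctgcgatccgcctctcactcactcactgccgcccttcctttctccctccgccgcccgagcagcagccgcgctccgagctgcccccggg
The Kpnb1 promoter holds CCAAT 3 times, at bases 56 to 60, 96 to 100 and 129 to 133, and the summit is at base 144, 11 bp from the last of them. In Kpna2 the summit is at base 123, and the nearest CCAAT, at bases 226 to 230, is 103 bp away.

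The other importin alpha genes had no optimal promoter peak, which left Kpna2 as 1 of 6 (16.7%, 0.421 to 64.1, background 14.1%). Kpna4 had a peak in the own list of replicate 1 (12.2, rank 6809) and in the conservative list (16.6), but its strongest relaxed peak in replicate 2 had a signal of 8.80 at rank 15161 and was another peak, with summits at -337 bp in replicate 1 and 931 bp in replicate 2 from the 5′ end. Kpna1 was in the conservative list alone (12.5), with relaxed signals of 10.2 in replicate 1 and 8.96 in replicate 2. Both genes lay at the lower end of the lists that held them. Kpna3 had relaxed signals of 6.16 in replicate 1 and 9.16 in replicate 2, and Kpna6 had 6.25 and 3.59. Kpna7, an importin alpha of oocytes and early embryos, had no peak within 1 kb of its 5′ end even among the 300000 relaxed peaks of each list. Its promoter, shown as the unoccupied counterpart of Kpna2, had a CpG observed/expected ratio of 0.245 over these 300 bases, against 1.05 in Kpna2. In a wider window on mm9, 500 bp either side of the 5′ end in GENCODE M1, the ratios were close, with 0.717 in Kpna7 and 0.837 in Kpna2. These windows differ from the 300 bases in annotation and centre as well as in width. Its capitals are 1 CCAAT box, read on the opposite strand.
Kpna7, chr5:145009587-145009886, minus strand: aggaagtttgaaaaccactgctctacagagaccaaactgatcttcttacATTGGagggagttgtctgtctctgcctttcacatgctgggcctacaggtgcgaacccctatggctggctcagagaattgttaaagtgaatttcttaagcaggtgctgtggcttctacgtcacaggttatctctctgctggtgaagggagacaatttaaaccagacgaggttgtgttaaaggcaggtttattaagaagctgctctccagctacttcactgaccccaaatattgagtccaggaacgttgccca

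Among the 11 genes of the importin beta family Kpnb1 was the single occupied gene in the optimal list (9.09%, 0.230 to 41.3). A pair of transportin genes had a peak in the own list of 1 replicate only. Tnpo3, which imports SR splicing factors, had a peak in the own list of replicate 1 (16.0, rank 4206) and a relaxed signal of 6.34 at rank 35014 in replicate 2. Tnpo2, a receptor of the transportin type that carries hnRNP proteins, had a peak in replicate 2 (18.2, rank 3523) and a relaxed signal of 10.2 at rank 10104 in replicate 1. These are different peaks, since the Tnpo3 summits lay at -32 bp in replicate 1 and 543 bp in replicate 2 from the 5′ end, and the Tnpo2 summits at -322 bp in replicate 1 and 394 bp in replicate 2. Tnpo1 had relaxed signals of 7.53 in replicate 1 and 8.17 in replicate 2. The Ipo genes were in none of the mm10 lists of strongest peaks. In the pooled relaxed list Ipo7 had 11.7, Ipo9 had 8.81, Ipo5 had 8.46, Ipo13 had 8.05, Ipo11 had 6.46 and Ipo4 had 6.08. These values lay below the 20.2 at which the strongest pooled peaks ended, and Ipo8 had no relaxed peak within 1 kb of its outer 5′ end in any list. The nearest start in the RefSeq promoter table lies 14354 bp from that end in Ipo5 and 1464 bp in Ipo8. Their relaxed results do not describe those starts.

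Of 6 exportin genes Xpo1 alone was occupied (16.7%, 0.421 to 64.1, background 14.1%). Its signal was 62.9 in the optimal list (rank 1458, chr11:23255677-23256036), 23.4 in replicate 1 (rank 2330) and 40.5 in replicate 2 (rank 1106). Relative to the list medians it stood at 1.45 in replicate 1 and 2.44 in replicate 2, so the replicates placed it less alike than Kpna2. The summit lay 52 bp before the outermost annotated 5′ end and 184 bp before the start in the RefSeq promoter table. That promoter is shown because the summit nearly coincides with a CCAAT box.
Xpo1, chr11:23255791-23256090, plus strand: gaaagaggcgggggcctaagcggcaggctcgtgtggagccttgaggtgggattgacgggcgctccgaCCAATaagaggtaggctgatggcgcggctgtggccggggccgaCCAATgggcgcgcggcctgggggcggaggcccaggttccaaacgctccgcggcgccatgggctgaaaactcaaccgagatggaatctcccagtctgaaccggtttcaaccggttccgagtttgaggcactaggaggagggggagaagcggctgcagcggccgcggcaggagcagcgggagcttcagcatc
CCAAT is at bases 68 to 72 and 111 to 115, and the summit is at base 67, 1 bp from the first box. Xpo6, which exports actin, had the highest pooled relaxed signal of the members outside the optimal list, 19.2 at rank 9047, but was in none of the 5 mm10 lists of called or strongest peaks. Its relaxed signals were 4.42 in replicate 1 and 10.6 in replicate 2, from summits at 898 and -518 bp from the 5′ end, which are different peaks. Xpo5, the exporter of pre-miRNA, had a pooled relaxed signal of 7.71. Xpot, the exporter of tRNA, and Xpo4 had relaxed peaks in replicate 2 alone (8.13 and 3.99), and Xpo7 had none.

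In the central channel 2 of 3 genes were occupied (66.7%, 9.43 to 99.2), against 14.1% of all genes, which lies inside the interval. Nup62, an FG nucleoporin, had a signal of 109 in the optimal list (rank 686, chr7:44816274-44816414), 56.1 in replicate 1 and 52.4 in replicate 2. Its summit lay 248 bp inside the gene, farther from the 5′ end than that of any other occupied member, and the matching mm9 summit, 257 bp inside, fell in an exon. It was 34 bp from the 5′ end of Il4i1b, on the same strand, and 322 bp from that of Atf5, a transcription factor gene on the opposite strand. When a peak was given to the nearest protein-coding 5′ end alone, Nup62 was the single member lost, which left 8. The signal at this locus can thus not be given to Nup62 by position.

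Nup98, an FG nucleoporin gene whose precursor is also cut to give the scaffold protein Nup96, had a signal of 52.4 in the optimal list (rank 1848, chr7:102210077-102210436), 23.4 in replicate 1 and 26.4 in replicate 2. The summit lay 91 bp before its 5′ end and inside a CCAAT box. The 5′ end of Pgap2 lay 324 bp from the summit, on the opposite strand. Nup54, a partner of Nup62 in the channel, had no optimal peak and relaxed signals of 7.40 in replicate 1 and 4.75 in replicate 2.

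The promoter of Nup62 is shown for contrast, as the summit lies beyond its end, together with that of Nup37, where 2 kinds of motif flank the summit.
Nup62, chr7:44815838-44816137, plus strand: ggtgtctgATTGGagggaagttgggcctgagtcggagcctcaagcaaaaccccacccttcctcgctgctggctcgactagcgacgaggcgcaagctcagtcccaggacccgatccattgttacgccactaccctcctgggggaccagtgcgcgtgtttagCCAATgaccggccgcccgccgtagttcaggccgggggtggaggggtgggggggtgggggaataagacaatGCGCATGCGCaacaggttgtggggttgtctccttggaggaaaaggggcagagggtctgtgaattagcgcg
Nup37, chr10:88146742-88147041, plus strand: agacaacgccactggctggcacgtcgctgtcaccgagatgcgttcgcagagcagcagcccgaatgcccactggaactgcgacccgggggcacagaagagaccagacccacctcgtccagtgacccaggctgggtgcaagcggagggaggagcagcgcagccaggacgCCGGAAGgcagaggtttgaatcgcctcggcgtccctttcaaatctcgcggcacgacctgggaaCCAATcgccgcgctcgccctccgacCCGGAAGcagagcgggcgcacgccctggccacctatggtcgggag
In Nup62 the capitals are CCAAT boxes at bases 9 to 13 and 161 to 165 and a palindromic match to the NRF1 core, read on both strands at bases 231 to 240. In Nup37 they are CCGGAAG, the core of ETS factors, at bases 168 to 174 and 256 to 262, and CCAAT at bases 231 to 235. The Nup37 summit, at base 243, lies between CCAAT, 8 bp away, and an ETS core, 13 bp away.

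The outer ring of the pore, the Y complex, had 2 of 6 genes occupied (33.3%, 4.33 to 77.7, background 14.1%). Nup37 had a signal of 88.0 in the optimal list (rank 947, chr10:88146804-88147163), 46.6 in replicate 1 and 40.2 in replicate 2. The summit was 8 bp inside the outermost annotated 5′ end, 8 bp before the RefSeq start that is base 251 above, and 15 bp from the 5′ end of Parpbp, a divergent gene of DNA repair, so position does not assign the peak to either. Nup133 was the weakest occupied member, with 37.4 in the optimal list (rank 2933, chr8:123949065-123949424) and a summit 20 bp inside the gene. The replicates placed it unlike each other, with 26.7 at rank 1886 in replicate 1 and a relaxed signal of 8.82 at rank 15052 in replicate 2. The remaining genes of the ring had no optimal promoter peak. Their pooled relaxed signals were 16.0 at Nup43, 14.5 at Nup107 and 7.44 at Nup160, and Nup85 had a relaxed peak of 3.72 in replicate 2 alone.

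On the 2 faces of the pore 1 gene each was occupied. Nup153, an FG nucleoporin of the nuclear basket, had a signal of 51.9 in the optimal list (rank 1864, chr13:46727866-46728225), with its summit 197 bp before the 5′ end. It had 17.2 in replicate 1 (rank 3735) and 38.8 in replicate 2 (rank 1176), which is 1.07 and 2.34 times the list medians, the widest gap among the 8 members with both values. Nup88, a nucleoporin of the cytoplasmic face, had 40.6 in the optimal list (rank 2626, chr11:70969836-70970195), 20.8 in replicate 1 and 20.1 in replicate 2. Its summit in the optimal list lay 43 bp before the 5′ end, inside a CCAAT box, and 114 bp from the 5′ end of the divergent gene Rpain. The own lists placed the summit outside that box, 69 bp before the 5′ end in replicate 1 and 81 bp before it in replicate 2. The partners of Nup153 and Nup88 had no peak in the optimal list. Nup50 of the basket had a pooled relaxed signal of 13.8 and Nup214, which binds Nup88, had 15.5.

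No gene of the inner ring, the scaffold that lines the channel, was occupied among 5. Pooled relaxed signals were 13.8 at Nup155, 12.1 at Nup93, 10.5 at Nup35 and 9.21 at Nup188, and Nup205 had a relaxed peak of 4.65 in replicate 2 alone. For 0 of 5 genes the exact interval reaches 52.2%, so no difference from the background was detectable. The membrane nucleoporin gene Nup210 had 7.96 near its outer 5′ end, which lies 1496 bp from its nearest start in the RefSeq promoter table. The paralogues Nup210l, which is known for its use in testis, and Nup62cl had no pooled relaxed peak.

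**Figure D2:**
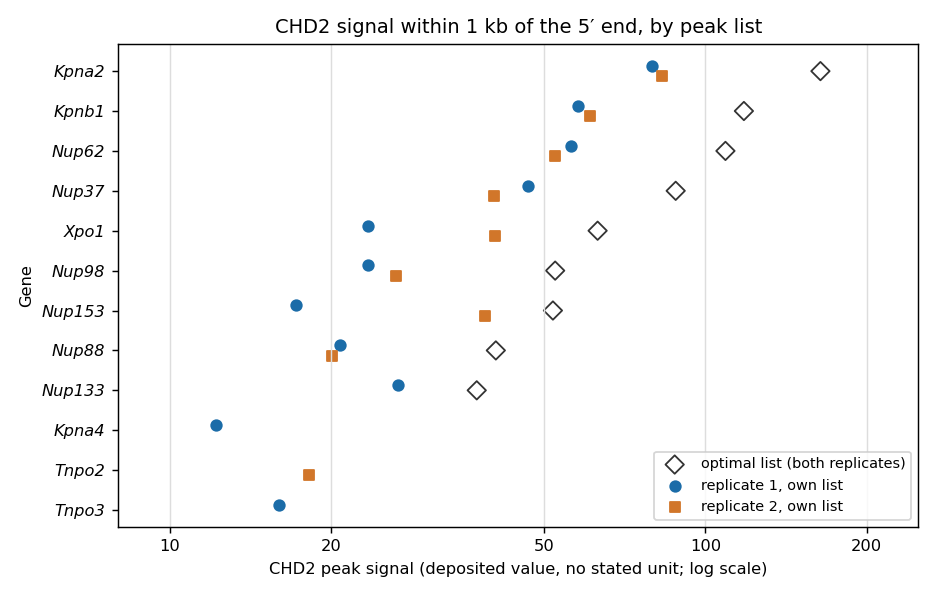
CHD2 signal (x axis, log scale, deposited value without a stated unit) of each of the 44 pore and transport genes chosen by symbol that has a promoter peak in at least 1 of 3 lists (y axis, ordered by optimal signal); diamonds are the optimal list, circles replicate 1 and squares replicate 2. Kpna2 leads these genes in all 3, Nup133 has no square, and Kpna4, Tnpo3 and Tnpo2 have a single replicate each; signals of different lists are not on the same scale.

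Occupied members did not stand at the bottom of the list. Their median optimal signal was 62.9 over 9 genes, against 45.0 over all 3036 genes with an optimal promoter peak. In the own list of replicate 1 the medians were 23.4 over 11 members and 22.8 over all genes, and in that of replicate 2 they were 40.2 over 9 members and 22.7. The excess of the members' median thus differed between the replicates' own lists, but these did not hold the same members. That of replicate 1 added the weak peaks of Kpna4 (12.2) and Tnpo3 (16.0). That of replicate 2 added Tnpo2 (18.2) and lacked Nup133. How much of the difference comes from this change of members was not tested. Among the stronger peaks of the optimal list, the 4141 highest by signal, the ratio of the medians was 0.983, against 1.40 in the whole list. That cut is by the compared signal itself, and all 9 members remained while weaker genes were removed. The ratio therefore had to fall, and the cut cannot decide whether the excess is stable. The lowest occupied member, Nup133, had 37.4, and the highest unoccupied one, Xpo6, had 19.2 in the pooled relaxed list. No signal threshold lies between them, since the lowest peak of the optimal list had 5.74.

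Most members, also outside the optimal list, had some relaxed peak. In the pooled relaxed list 34 of 44 members did (77.3%, 62.2 to 88.5), against 57.7% of all genes. Among the 25 members with a relaxed but no optimal peak the pooled signal ranged from 6.08 to 19.2 with a median of 12.1, while the median of 9384 such genes in all was 9.69. Relaxed lists run far into background, so a relaxed peak is not occupancy. Spearman's rho between replicates was 0.669 across 29 members with a relaxed peak in both, against 0.673 across 9038 genes. Across the 20 of these members without an optimal peak rho was 0.116, and across the 9 occupied members it was 0.750. The optimal list was itself made from both replicates by an irreproducible discovery rate procedure, so this split is not independent of their agreement. It also leaves those 20 members a narrower range of signal. The same split was not made over all genes. The contrast therefore cannot decide whether the replicates rank weaker members less alike than stronger ones. The strongest peak can be a different one in each replicate, as at Tnpo2, Tnpo3, Kpna4 and Xpo6 among others. These correlations run across genes of the same libraries and carry no p-value.

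**Figure D3:**
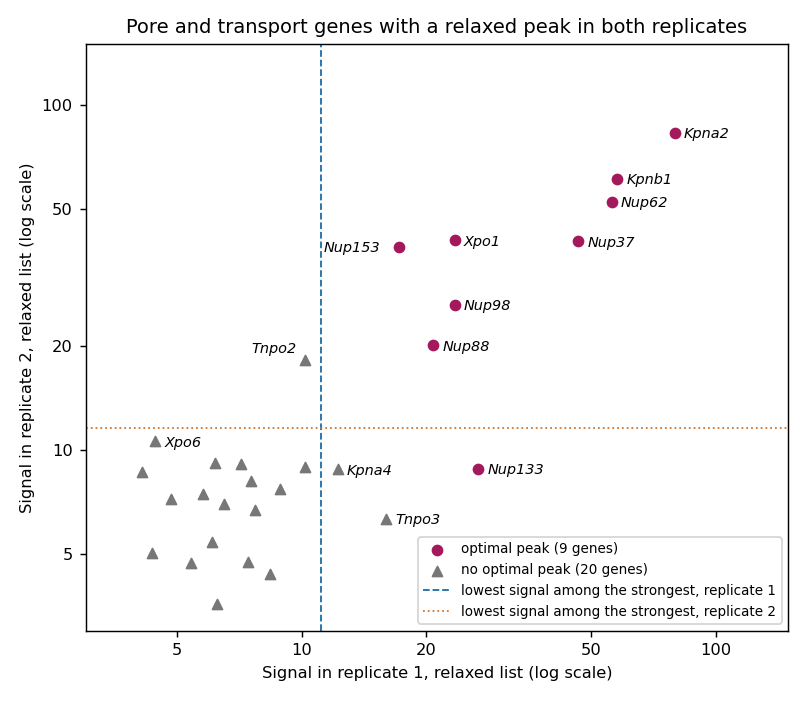
Signal of the strongest relaxed peak within 1 kb of the 5′ end in replicate 1 (x axis) and replicate 2 (y axis), both on log scales, for the 29 pore and transport genes with such a peak in both; circles have an optimal peak and triangles have none. The dashed and dotted lines mark the lowest signals among the strongest peaks, 11.1 in replicate 1 and 11.6 in replicate 2, and 8 of the 9 circles lie above both.

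The position of CHD2 at the members resembled that at other genes. The summit lay before the 5′ end in 6 of 9 members, against 65.3% of all 3036 genes with a peak. The median distance of summit and 5′ end was 91 bp in members and 104 bp in all genes. Another protein-coding 5′ end lay within 1 kb in 4 of 9 occupied members (Nup62, Nup98, Nup37 and Nup88), against 3 of 35 unoccupied members (Nup188, Xpo5 and Nup62cl). Among all genes the shares were 28.6% with a peak and 8.36% without. On chromosome 11 lay 4 of the 9 occupied members, out of 5 members there, while 17.7% of all genes of that chromosome had a peak.

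CpG content did not set occupied and unoccupied members far apart. In windows of 500 bp either side of the 5′ end on mm9, the median CpG observed/expected ratio was 0.817 (0.725 to 0.978) over the 9 occupied members and 0.785 (0.0586 to 0.970) over the 35 others. Among all genes it was 0.757 with an optimal peak and 0.508 without. The lowest values belonged to unoccupied members, with 0.0586 at Kpna1, 0.185 at Nup160 and 0.260 at Ipo4.

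Promoter motifs were counted in the RefSeq promoters, which held 35 of the 44 members and all 9 occupied ones. At Ipo5, Ipo8 and Nup210 this promoter lay over 1 kb from the scored 5′ end. With all RefSeq starts scored as well, the occupied members were still the same 9. Exact matches to 10 sets of letters were sought on both strands. CCAAT, bound by NF-Y, was in 7 of 9 occupied promoters (77.8%) and 13 of 26 unoccupied ones. Of all genes, 56.6% of promoters with a peak and 36.2% of those without held it, or 39.2% of all 17492. It was absent only from Nup153 and Nup133 among the occupied promoters. Nup133 held TGACGTCA, the cyclic AMP response element, at bases 127 to 134 and 184 to 191. That element was in 1 of 9 occupied and 1 of 26 unoccupied member promoters, the other being that of Nup214, and in 2.33% of all promoters.

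Summits of the optimal list lay close to CCAAT at 5 of the 8 members whose summit is inside the promoter, namely Kpnb1, Nup37, Xpo1, Nup98 and Nup88. Within 20 bp, a distance chosen after the values were seen, that is 62.5%, against 673 of 1682 genes in all. At Nup88 the summits of the replicates' own lists, at -69 bp in replicate 1 and -81 bp in replicate 2, lay over 20 bp from any CCAAT of the promoter. In the mm9 list CCAAT was within 50 bp of the summit at the same 5 members, out of 9, against 49.4% of 1900 promoter peaks and 38.2% of all 4613 peaks. CTCGCGAGA, a motif of CpG-rich promoters, was in 6.03% of occupied and 0.168% of unoccupied promoters of all genes but in none of the 35 member promoters. The E-box CACGTG was in none of 9 occupied and in 7 of 26 unoccupied member promoters, against 9.72% of occupied and 7.60% of unoccupied promoters of all genes. The SP motif GGGCGGGG was in 2 of 9 occupied and 12 of 26 unoccupied member promoters, with 23.8% of all promoters holding it. The ETS core CCGGAAG was in 1 of 9 and 5 of 26, with 11.9% of all. The NRF1 core GCATGCGC and the YY1 motif AAGATGGCG were each in 1 of 9 and 3 of 26, with 3.61% and 1.92% of all. The letters ACTACA, part of the ZNF143 site, were in 0 of 9 and 4 of 26, with 10.7% of all. The TATAAA box was in 0 of 9 and 2 of 26, with 13.3% of all. A match describes letters only and does not show that a factor is bound.

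**Figure D4:**
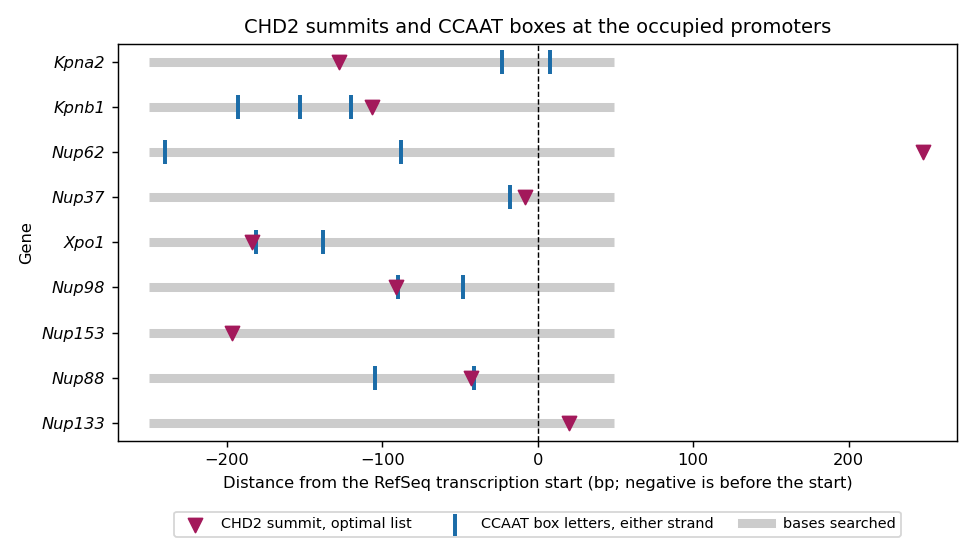
Distance from the RefSeq transcription start (x axis, bp) of the CHD2 summit (triangles) and of CCAAT letters on either strand (bars) at the 9 occupied promoters (y axis, ordered by optimal signal); grey lines are the bases searched. Summits are those of the optimal list. Summit and CCAAT lie within 20 bp of each other at Kpnb1, Nup37, Xpo1, Nup98 and Nup88, and the Nup62 summit lies outside the bases searched.

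Other genes of the pore and of nuclear transport, taken from lists outside the naming rule, were occupied in 14 of 37 cases (37.8%, against 14.1% of all genes). The lists were chosen with earlier results of these data known, so this share supports nothing by itself. The highest was Nupl1, with 261 in the optimal list, 129.5 in replicate 1 and 127 in replicate 2. Its synonym in RefSeq is Nup58, so it encodes the channel partner of Nup62 and Nup54 and escaped the rule by its older symbol. Of 10 other pore genes, peaks were found at Ahctf1 (152), which seeds pore assembly on chromatin and is known as Elys, at Tpr (91.2), a large protein of the nuclear basket, and at Sec13 (16.7) of the Y complex. Pom121, Ndc1, Ranbp2, Seh1l, Rae1, Gle1 and Aaas had none in the optimal list, though Ndc1 had 15.3 in replicate 1 and 13.1 in replicate 2.

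Of 9 genes of the Ran cycle and carriers 3 were occupied. They were Ranbp17 (202), a receptor of the importin beta superfamily, Cse1l (46.3), the exportin that returns importin alpha to the cytoplasm, and Ranbp1 (29.7), which binds Ran in its GTP form. Ran itself and its exchange factor Rcc1 had no peak. Rangap1 and Nutf2 were in the own lists of both replicates (20.9 and 15.5 in replicate 1, 16.1 and 14.1 in replicate 2) but not in the optimal list. Of 16 mRNA export genes 7 were occupied, with the TREX-2 gene Pcid2 at 146, Thoc1 of the THO complex at 132, Sarnp at 128, Thoc6 at 68.1, Nxt1 at 59.2, Ddx39b at 26.2 and Alyref at 17.1. Nxf1, which forms the mRNA exporter with Nxt1, had none. Alyref was in the own list of neither replicate, and Sec13 and Ranbp1 were in that of replicate 2 alone. Some summits lay over 500 bp from the 5′ end, at 751 bp in Ranbp17, 512 bp in Tpr, -671 bp in Alyref and -576 bp in Ddx39b. Other 5′ ends near the peaks of these further genes were not searched for.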

How the data were processed

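CHD2 ChIP-seq peak lists of 2 biological replicates were used. Per the deposited descriptions, relaxed lists came from the alignments of each replicate or of both, the optimal and conservative lists from an irreproducible discovery rate procedure on them, and a further list from mm9 alignments. Which caller, aligner and filters the authors ran is not given in the sources used here. No control library was analysed. The deposited signal of a peak and its deposited −log10 q-value have no stated normalization, and the q-values entered no result. Differences in how each list was cut can shift every count and rank.

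Members, lists, motifs and most alternatives were chosen with earlier results of these data known, and the distance of 20 bp between summit and CCAAT after its values were seen. 5′ ends on mm10 are the outer gene ends in RefSeq (GRCm38.p6). Strand came from the RefSeq promoter table, else from GENCODE M1, for 21530 of 21900 genes. For 35 members both sources gave the same strand, and for 9 GENCODE M1 alone gave it. Where both differed, at 48 genes, RefSeq was used. The mm9 list was set against GENCODE M1 and its genome. No coordinates were moved between builds. A gene's score is the highest signal of a summit within 1 kb. No test was run, since there is 1 group and genes are not replicates. Shares carry exact 95% intervals. Peak assignment, motif search and CpG measures were tested on simulated data. All 44 members were named by rule, and the Xpo1 promoter was added after its values were seen. Python 3.11.15, numpy 2.4.6, pandas 2.3.3 and scipy 1.17.1 were used.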

Additional observations from a re-analysis of the deposited data

How the results depend on the processing

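Counts of occupied members changed little under most of the 11 alternatives per result, while the share of all protein-coding genes with a peak moved. That share was 14.1%, and ranged from 9.99% on mm9 to 16.2% with a window of 2.5 kb. It was 10.1% among the 4141 strongest optimal peaks and 12.2% by nearest 5′ end. An unchanged count is therefore not an unchanged standing against the background. The total of occupied members was 9, between 8 (nearest protein-coding 5′ end alone) and 11 (the conservative list and the list of replicate 1). All 9 were kept with a window of 500 bp or 2.5 kb, in the conservative and pooled lists, in replicate 1 alone, among the 4141 strongest optimal peaks, by peak overlap, on mm9, and with all starts of the RefSeq promoter table, an alternative chosen after seeing the data. Nup62 was lost by nearest 5′ end and Nup133 with replicate 2 alone. Importin and exportin genes moved from 3 to 5 in the conservative list, through Kpna1 and Kpna4, and ranged from 4 to 5 with 1 replicate left out. The Nup count ranged from 5 to 6 in the same way. The members' median signal over that of all occupied genes was 1.40. It was 1.03 in replicate 1 alone and 1.77 in replicate 2 alone, whose lists did not hold the same members, so its size is not stable. Among the 4141 strongest peaks it was 0.983. That cut by the compared signal kept all 9 members and so had to lower the ratio. No paired analysis was possible because there is 1 group and no test. Depth is unknown, so weak peaks such as Kpna4 and Tnpo3 cannot be called absent.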

Other observations

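Several members carried optimal peaks away from their 5′ ends. Nup160 of the Y complex, unoccupied within 1 kb, had a peak of signal 61.4 (rank 1502) with its summit 2085 bp inside the gene, and it became the single further member when the window was 2.5 kb. Kpnb1 had weaker peaks 1203 and 1404 bp inside the gene (6.10 and 21.9), Nup62 had one at 2981 bp (26.7), and Kpna2 had one 2440 bp before its 5′ end (20.8). Nup153 had a further, weaker peak within the 1 kb promoter window, 284 bp inside the gene (18.7). Nup205 and Ipo11 held peaks deep in the gene, at 58772 bp (28.4) and 80189 bp (31.5). Ipo11 had a further peak 4775 bp before its 5′ end (68.5), with no nearer protein-coding 5′ end.

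Peaks within 5 kb of a member's 3′ end lay at other genes. The strongest, of signal 210.2 (rank 230), lay past Xpo5 and 15 bp from the 5′ end of Polr1c, a subunit gene of RNA polymerases I and III. Others lay past Ipo13, 52 bp from the 5′ end of Dph2 (55.2), past Kpna1, 13 bp from that of Wdr5b (42.6), and past Kpna6, 193 bp from that of Txlna (31.0).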
